A study of Mus musculus with 14 samples.

Results

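The 9 genes described here carry the insulin signal and the uptake and handling of glucose in fat: Insr, Irs1, Irs2, Pik3r1, Akt2, Slc2a4, Slc2a1, Pde3b and Pck1. They were taken by gene symbol, with no threshold on their values, from a table of 23282 genes, and all 9 had counts and passed edgeR's filter on low counts in every comparison. The RNA came from epididymal white adipose tissue (eWAT), the visceral fat pad attached to the epididymis, of wild-type male C57BL/6J mice that were 4 weeks old at purchase. The control group received a standard diet and the WD group a Western diet, richer in fat and with added cholesterol, for 20 weeks. The labels give 2 batches: control batch 1 (n = 4), WD batch 1 (n = 5) and control batch 2 (n = 5), 14 libraries in all, each from a separate sample. All WD libraries belong to batch 1, so that diet and batch cannot be told apart when they are set against control batch 2. The feeding state of the mice at tissue collection is not given in the sources used here.

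In adipocytes, insulin binds its receptor on the cell surface, and the receptor phosphorylates adaptor proteins that recruit phosphoinositide 3-kinase and so activate the kinase AKT. Active AKT sends vesicles that hold the glucose transporter GLUT4 to the plasma membrane, which raises glucose uptake, and activates a phosphodiesterase that lowers cyclic AMP and restrains lipolysis. Insulin also lowers transcription of the gene for phosphoenolpyruvate carboxykinase, which in fat serves to supply glycerol-3-phosphate for re-esterification of fatty acids. The data below are mRNA levels. Phosphorylation, transporter position and glucose uptake, through which insulin acts within minutes, were not measured here.

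Total counts ranged from 10278970 to 13712254 per library, where 3 counts, used as the floor of detection, equal between 0.219 and 0.292 CPM (a gene's count scaled to a common library size). Control batch 1 replicate 1 stood apart: 10 genes typical of the epididymis took 12.3% of its counts and at most 0.00536% of those of any other library, and its 10 adipocyte markers summed to 7107 CPM against 29657 to 83301 in the other 13 libraries. Control batch 1 replicate 4 had counts for 7999 genes, against 10903 to 13780 in the others. Without replicate 1, adipocyte markers summed to between 40212 and 57124 CPM in control batch 1, between 29657 and 42510 in WD and between 71382 and 83301 in control batch 2, so that the markers that define the labelled tissue were present in each library but differed between the groups. The 10 macrophage markers summed to between 272 and 1569 CPM in control batch 1, between 1577 and 2426 in WD and between 318 and 663 in control batch 2. In bulk tissue, fewer cells of a type and less RNA per cell cannot be told apart. The part of these differences in the results below was not tested. Levels relative to the adipocyte markers, given below, cannot decide it, since the markers themselves differed in both directions. In WD against control batch 2, 8 of the 10 were called lower and 1 higher. Cfd was at -3.07 and Lep at 1.29 on the log2 scale.

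**Figure D1:**
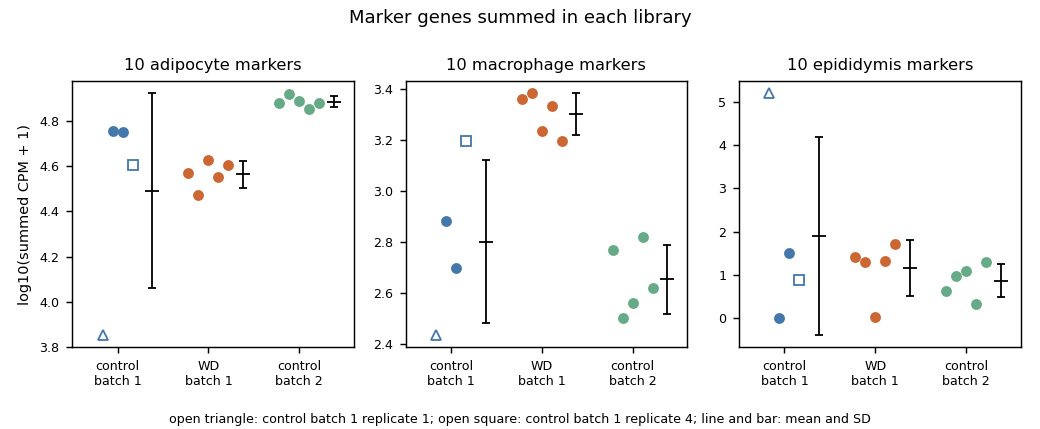
Sum of the CPM of 10 adipocyte, 10 macrophage and 10 epididymis markers, as log10(CPM + 1), 1 point per library, by group, with the mean and SD. Control batch 1 replicate 1 (open triangle) is lowest for adipocyte markers, at 7107 CPM, and highest for epididymis markers, while all WD libraries lie at or above 1577 CPM for macrophage markers.

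Promoter sequences were available for 6 of the 9 genes, from RefSeq on build GRCm38.p6, and cover 250 bases before and 50 bases after the start used for each entry. Insr, Slc2a4 and Pde3b had no entry. The promoters of both adaptor genes and of Pck1 are shown, since Irs1 and Irs2 encode related adaptors of which only Irs1 passed the test against control batch 2, and Pck1 is known as a target of both insulin and cyclic AMP in transcription. Whether the changes of Irs1 and Irs2 differ was not tested. Capitals mark matches, on either strand, to the GC box GGGCGG, the core TGACG of the cyclic AMP response element, the E-box CACGTG and the insulin response core TGTTTTG. The TATA box TATAAA and the forkhead motif GTAAACA were also searched and are not in these 3 windows. The Irs1 promoter lies at chr1:82291390-82291689 (minus strand), the Irs2 promoter at chr8:11008880-11009179 (minus strand) and the Pck1 promoter at chr2:173152823-173153122 (plus strand). The whole Irs2 window lies upstream of the annotated start of that gene, at position 11008430, whereas the Irs1 and Pck1 windows span theirs. Motif positions in Irs1 and Irs2 are therefore not at like distances from the annotated starts.
Irs1: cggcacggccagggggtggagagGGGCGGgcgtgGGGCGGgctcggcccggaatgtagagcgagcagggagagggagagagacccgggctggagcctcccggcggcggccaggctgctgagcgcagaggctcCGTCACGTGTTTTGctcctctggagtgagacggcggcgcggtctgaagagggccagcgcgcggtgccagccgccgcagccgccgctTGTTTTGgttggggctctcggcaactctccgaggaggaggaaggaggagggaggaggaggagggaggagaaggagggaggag
Irs2: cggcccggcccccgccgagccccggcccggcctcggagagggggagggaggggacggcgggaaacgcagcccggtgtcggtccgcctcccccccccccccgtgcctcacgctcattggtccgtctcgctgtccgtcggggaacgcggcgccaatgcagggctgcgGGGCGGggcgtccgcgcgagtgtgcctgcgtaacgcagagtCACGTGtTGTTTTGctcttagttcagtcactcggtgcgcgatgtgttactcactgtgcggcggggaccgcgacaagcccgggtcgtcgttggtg
Pck1: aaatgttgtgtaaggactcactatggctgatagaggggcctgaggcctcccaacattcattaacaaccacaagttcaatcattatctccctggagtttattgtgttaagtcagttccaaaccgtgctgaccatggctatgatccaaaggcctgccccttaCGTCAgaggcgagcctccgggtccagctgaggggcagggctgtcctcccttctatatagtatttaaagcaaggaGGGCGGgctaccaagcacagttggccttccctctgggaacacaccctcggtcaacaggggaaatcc
Both adaptor promoters hold an E-box with TGTTTTG next to it, overlapping in Irs1 and parted by a single base in Irs2. In Irs1 the matches to TGACG on the other strand, to CACGTG and to TGTTTTG overlap in a single run of capitals. The Pck1 window holds a match to TGACG on the other strand and a GC box, and neither an E-box nor the insulin response core TGTTTTG. Of 32851 promoters of this length, 35.7% hold GGGCGG, 20.8% TGACG, 7.15% CACGTG, 6.28% TGTTTTG, 13.6% TATAAA and 3.65% GTAAACA. These matches describe letters, not binding.

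Insr, which encodes the insulin receptor, was the member with the clearest difference between diets. The gene lies on the minus strand at chr8:3150922-3279617 of mm10 and overlaps the antisense transcript Gm16180. The 4 libraries of control batch 1 held 64.8, 125, 91.5 and 81.9 CPM in replicate order, and the WD libraries held 47.2, 35.2, 37.9, 59.8 and 54.5 CPM. Control batch 2 held 111, 128, 99.0, 75.3 and 81.3 CPM. All 5 WD libraries lay below all 9 controls, including the control with epididymis RNA, and the controls of both batches overlapped. Mean levels were 46.9 ± 10.5 CPM (SD, n = 5) in WD, 90.8 ± 25.3 (SD, n = 4) in control batch 1 and 98.8 ± 21.4 (SD, n = 5) in control batch 2. Among 12157 genes tested in batch 1, 0.847% lay lower in every WD library than in every control of that batch, and 0.222% lay lower than in all 9 controls. Insr was the only member in either set. Without control batch 1 replicate 1, Insr was again the only member whose WD libraries all lay below the batch 1 controls, against 2.25% of all genes.

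The log2 fold change of Insr in batch 1 was -0.96 (SE 0.32), with an unadjusted p of 0.0105 and an FDR of 0.587 in edgeR's quasi-likelihood test with Benjamini-Hochberg adjustment over all genes. It did not pass the threshold of 0.05. Without control batch 1 replicate 1 the fold change was -1.08 (SE 0.31, unadjusted p = 0.0044, edgeR FDR 0.465). On the log2(CPM + 1) scale, a two-sided exact permutation test between the 4 controls and 5 WD libraries of batch 1 gave p = 0.0159. That is the smallest p this test can give with these group sizes. Over all 9 controls and 5 WD libraries, the exact permutation test gave p = 0.000999, again the smallest possible, with a difference of -1.0 in mean log2(CPM + 1). Each of the 9 genes was tested in this way, and these p-values are not adjusted. Permutation tests that pool the controls of both batches did not keep libraries within their batch. Since all WD libraries belong to batch 1, batch as well as diet enters those p-values. Against control batch 2 the log2 fold change was -1.09 (SE 0.23, edgeR FDR 0.00744), and between the control groups, batch 2 minus batch 1, it was 0.11 (SE 0.27, edgeR FDR 0.985).

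Relative to the mean log2 level of the 10 adipocyte markers in the same library, Insr lay between -5.87 and -4.74 in WD, between -5.08 and -2.75 in control batch 1 and between -5.83 and -5.07 in control batch 2. On this scale the whole range of control batch 2 lay within that of WD. The difference between WD and control batch 1 was -1.19 (exact permutation test, two-sided, p = 0.0317), and that between WD and all 9 controls was -0.49 (exact permutation test, two-sided, p = 0.273). Both values include control batch 1 replicate 1, which had the fewest adipocyte transcripts and the highest ratio, -2.75. Without it the other batch 1 controls lay between -5.08 and -4.44. The difference in batch 1 was then -0.69 (exact permutation test, two-sided, p = 0.0714, smallest possible p 0.0357), and that from 8 controls was -0.22 (exact permutation test, two-sided, p = 0.424). The separation from control batch 2 was seen in CPM and not in levels relative to adipocyte markers. The markers themselves were lower in WD than in control batch 2, which raises the WD values on this scale.

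**Figure D2:**
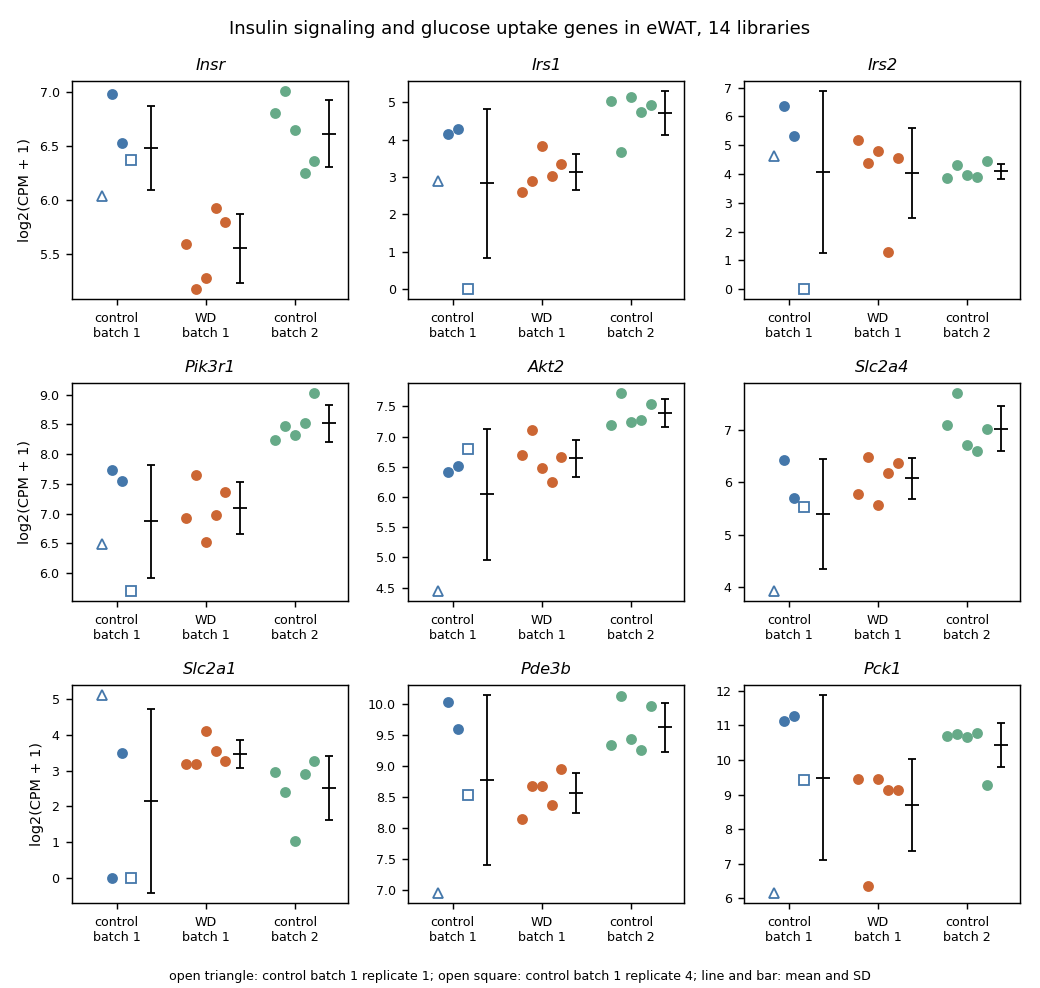
Level of each of the 9 genes as log2(CPM + 1), 1 point per library, by group, with the mean and SD. Insr is the only panel in which all 5 WD points lie below all 9 control points, and control batch 2 lies above WD for Pik3r1, Akt2, Slc2a4 and Pde3b.

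The adaptors Irs1 and Irs2 dock phosphoinositide 3-kinase at the activated receptor. Irs1 (chr1:82233105-82291439, minus strand, overlapped by Gm9747 on the other strand) had 6.37, 16.8, 18.4 and 0 CPM in control batch 1 and 5.01, 6.44, 13.2, 7.12 and 9.17 CPM in WD. In control batch 2 it had 31.5, 11.7, 34.4, 25.8 and 29.5 CPM. The WD range lay within that of control batch 1, whereas 4 of 5 batch 2 controls lay above all WD libraries and replicate 2, with 123 counts, lay inside the WD range. The fold change in batch 1 was -0.35 (SE 1.26) on the log2 scale, and against control batch 2 Irs1 fell by 1.71 (SE 0.40, edgeR FDR 0.0152).

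Irs2 (chr8:10986964-11008430, minus strand, overlapped by 9530052E02Rik on the other strand) had 23.5, 81.7, 38.7 and 0 CPM in control batch 1 and 35.0, 20.1, 26.6, 1.42 and 22.6 CPM in WD. Control batch 2 was narrower, with 13.5, 18.97, 14.7, 13.8 and 20.7 CPM. In 4 of 5 WD libraries Irs2 lay at or above 20.1 CPM, within or above the range of control batch 2, while WD replicate 4 held only 18 counts. The log2 fold changes were -0.77 (SE 1.17) in batch 1 and 0.36 (SE 0.54, edgeR FDR 0.844) against control batch 2. Both adaptors were at 0 counts in control batch 1 replicate 4, the library with the fewest genes.

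Pik3r1 and Akt2 stand next in the pathway. Pik3r1 encodes the p85 alpha regulatory subunit of phosphoinositide 3-kinase (chr13:101680761-101768217, minus strand, with the transcript Gm36638 on the same strand). It had 88.9, 212, 187 and 51.0 CPM in control batch 1, 121, 201, 91.4, 124 and 164 CPM in WD, and 302, 354, 321, 366 and 521 CPM in control batch 2. The libraries of batch 1 overlapped across diets, and every library of control batch 2 lay above every library of batch 1, control or WD. The log2 fold change was 0.06 (SE 0.41) in batch 1 and -1.42 (SE 0.23, edgeR FDR 0.00110) against control batch 2, and control batch 2 exceeded control batch 1 by 1.46 (SE 0.40, unadjusted p = 0.00333, edgeR FDR 0.445).

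Akt2 encodes the AKT isoform that serves insulin-stimulated glucose uptake in fat (chr7:27591560-27639453, plus strand). It had 20.7, 84.2, 90.7 and 110.2 CPM in control batch 1, 102, 137, 88.1, 75.4 and 101 CPM in WD, and 145, 210.4, 149.9, 155 and 185 CPM in control batch 2. The pattern was that of Pik3r1, with control batch 2 above all libraries of batch 1. The lowest value belonged to control batch 1 replicate 1, the library with few adipocyte transcripts. The log2 fold change was 0.39 (SE 0.42) in batch 1 and -0.76 (SE 0.20, edgeR FDR 0.0305) against control batch 2, and the control groups differed by 1.14 (SE 0.40, unadjusted p = 0.0143, edgeR FDR 0.512).

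Of the glucose transporters, Slc2a4 encodes GLUT4, the insulin-responsive transporter of fat and muscle (chr11:69942286-69948190, minus strand). It had 14.1, 84.5, 51.1 and 45.4 CPM in control batch 1, 54.0, 88.7, 46.6, 71.6 and 82.1 CPM in WD, and 135, 208, 104, 95.2 and 129 CPM in control batch 2. Without the library with epididymis RNA, WD spanned 46.6 to 88.7 CPM and control batch 1 spanned 45.4 to 84.5 CPM, ranges that nearly coincide. All control batch 2 libraries lay above both. The log2 fold change was 0.49 (SE 0.45) in batch 1, or 0.18 (SE 0.35) without control batch 1 replicate 1, and -0.98 (SE 0.25, edgeR FDR 0.0265) against control batch 2. Control batch 2 exceeded control batch 1 by 1.45 (SE 0.44, unadjusted p = 0.00672, edgeR FDR 0.452). Relative to the adipocyte markers, Slc2a4 lay between -5.39 and -4.49 in WD, between -5.91 and -4.87 in control batch 1 and between -5.47 and -4.38 in control batch 2, so that all 3 groups overlapped on that scale.

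Slc2a1 encodes GLUT1, the transporter of basal glucose uptake found in most cell types (chr4:119108745-119137329, plus strand, overlapped by Mir1957a and, on the other strand, Gm12867 and Gm12868). It was the lowest member in control batch 2, with 6.78, 4.29, 1.05, 6.57 and 8.58 CPM. Control batch 1 held 33.6, 0, 10.2 and 0 CPM and WD held 8.12, 8.05, 16.2, 10.8 and 8.58 CPM. Every WD library held at least 75 counts, while replicates 2 and 4 of control batch 1 held 0, and the highest value of all belonged to the control with epididymis RNA. The direction in batch 1 was not settled: the log2 fold change was -0.09 (SE 1.52) in edgeR and 1.61 (SE 1.79) without that library, and with all libraries it was 0.065 with library totals and 3.64 with limma-voom. In WD against control batch 2 the change was 0.91 (SE 0.61, edgeR FDR 0.514), and the groups overlapped between 8.05 and 8.58 CPM. Relative to the adipocyte markers, Slc2a1 lay between -7.94 and -6.86 in WD and between -11.1 and -8.93 in control batch 2, without overlap, and between -11.7 and -3.68 in control batch 1. The share of all genes without overlap on that scale was not taken. On that scale and without the control with epididymis RNA, WD exceeded the 8 other controls by 2.30 (exact permutation test, two-sided, p = 0.00155) and the 3 of batch 1 by 2.68 (exact permutation test, two-sided, p = 0.0357). Each p is the smallest that its group sizes allow. At 0 counts, the values of replicates 2 and 4 of control batch 1 are set by the markers alone. In control batch 2 the markers were higher than in WD, which lowers the values there. Over 8 controls and 5 WD libraries, without the control with epididymis RNA, the difference in mean log2(CPM + 1) was 1.45 (exact permutation test, two-sided, p = 0.0249, smallest possible p 0.00155), a value that was 1.11 with p = 0.191 in the exact permutation test over all 14 libraries.

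Pde3b encodes the phosphodiesterase through which insulin restrains lipolysis (chr7:114415254-114537937, plus strand). Control batch 1 held 123, 1050.3, 773 and 369 CPM, WD held 282, 410.1, 411, 329.7 and 497 CPM, and control batch 2 held 647, 1128, 692, 616 and 1001 CPM. All WD libraries lay below all control batch 2 libraries. In batch 1 replicates 2 and 3 of the controls lay above WD, replicate 4 inside the WD range and replicate 1 below it. The log2 fold change was -0.59 (SE 0.48, edgeR FDR 1.00) in batch 1 and -0.92 (SE 0.32, unadjusted p = 0.0146, edgeR FDR 0.655) without replicate 1. With control batch 2 as the reference Pde3b fell by 1.09 (SE 0.22, edgeR FDR 0.00503), and the controls differed by 0.49 (SE 0.50). Relative to the adipocyte markers, it lay between -2.99 and -2.21 in WD, between -2.28 and -1.68 in control batch 1 and between -2.80 and -1.94 in control batch 2. On that scale the difference in batch 1 was -0.48 (exact permutation test, two-sided, p = 0.0317), and over all 9 controls it was -0.17 (exact permutation test, two-sided, p = 0.433). Without control batch 1 replicate 1 these differences were -0.44 (exact permutation test, two-sided, p = 0.0714) and -0.12 (exact permutation test, two-sided, p = 0.589).

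Pck1, cytosolic phosphoenolpyruvate carboxykinase, serves glyceroneogenesis in fat (chr2:173153073-173159253, plus strand). It had the highest group mean of control batch 2, 1474 ± 480.1 CPM (SD, n = 5), and the widest range of the 9. Control batch 1 held 69.8, 2242, 2489 and 680.2 CPM, WD held 692, 81.0, 704, 554 and 555 CPM, and control batch 2 held 1643, 1728, 1636, 1743 and 619 CPM. In 6 of 9 controls Pck1 lay at or above 1636 CPM, a level that no WD library reached, but replicates 1 and 4 of control batch 1 and replicate 5 of control batch 2 lay at or below the upper WD values. The log2 fold change in batch 1 was -1.41 (SE 0.78, edgeR FDR 1.00), and -1.80 (SE 0.56, unadjusted p = 0.00747, edgeR FDR 0.547) without control batch 1 replicate 1. Relative to control batch 2 it fell by 1.52 (SE 0.42, edgeR FDR 0.040), a call that was lost with library totals (edgeR FDR 0.0685) and in 8 of 10 fits that left out a single library (edgeR FDR up to 0.0917). With the replicate number as a block the edgeR FDR was 0.0926. The control groups differed by 0.10 (SE 0.72). WD replicate 2, at 755 counts, stood far below the other WD libraries, which held between 6662 and 9804 counts. Relative to the adipocyte markers, Pck1 lay between -4.69 and -1.50 in WD, between -2.65 and -0.33 in control batch 1 and between -2.91 and -1.29 in control batch 2. The difference in batch 1 on that scale was -1.06 (exact permutation test, two-sided, p = 0.206), or -1.53 (exact permutation test, two-sided, p = 0.0357) without control batch 1 replicate 1.

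**Figure D3:**
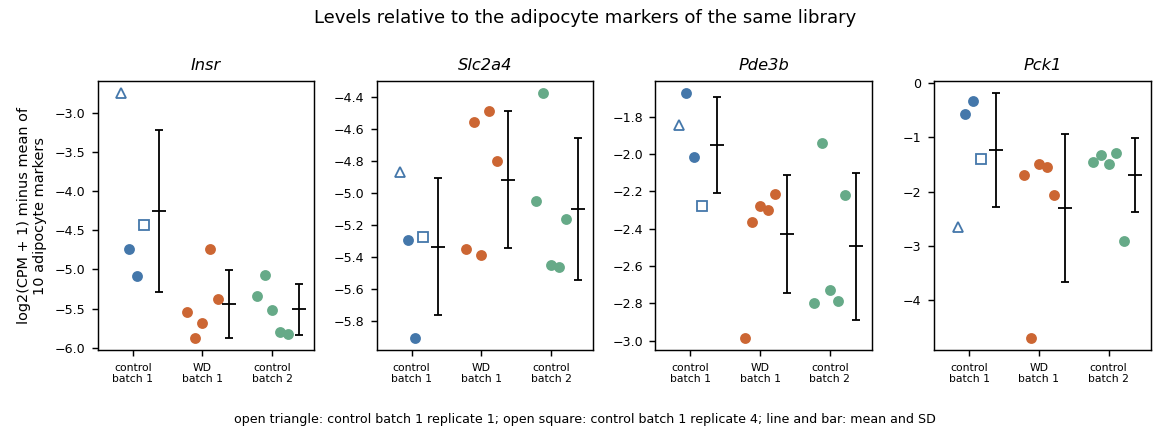
Levels of Insr, Slc2a4, Pde3b and Pck1 as log2(CPM + 1) minus the mean log2(CPM + 1) of 10 adipocyte markers in the same library, 1 point per library, with the mean and SD. On this scale WD and control batch 2 overlap for all 4 genes, and Insr in WD averages -5.44 against -5.51 in control batch 2 and -4.25 in control batch 1, or -4.75 without control batch 1 replicate 1 (open triangle).

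Counted over the members, 0 of 9 passed an FDR of 0.05 in batch 1, where 0% of the 12157 genes tested did. Only Insr reached 0.05 before adjustment in the same edgeR test, being lower in WD, as did 1.82% of all genes in that direction. DESeq2 called 114 genes and none of the 9, and limma-voom called 0 genes. Of the 9, 6 had negative and 3 had positive log2 fold changes, with a median of -0.35 beside 0.03 over all genes. Without control batch 1 replicate 1, Insr, Pde3b and Pck1 were lower in WD at an unadjusted p below the same limit, beside 1.75% of all genes, and none passed the FDR threshold. When both control batch 1 replicates that stood apart were left out, a choice made after the values were seen, the fold changes were -1.21 (SE 0.32, FDR 0.136) for Insr, -1.24 (SE 0.28, FDR 0.0672) for Pde3b and -2.19 (SE 0.52, FDR 0.0813) for Pck1 in edgeR's quasi-likelihood test, and again 0 of 9 passed.

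Set against control batch 2, 7 of 9 members passed and all 7 were lower in WD: Insr, Irs1, Pik3r1, Akt2, Slc2a4, Pde3b and Pck1. Of all 12070 genes tested, 2.48% were called lower. DESeq2 and limma-voom called the same 7 members. The WD libraries of 5 members, Insr, Pik3r1, Akt2, Slc2a4 and Pde3b, lay entirely below control batch 2, as did those of 3.80% of all genes. The median over the 9 members was -1.09 beside -0.0034 over all genes. The adipocyte markers were also lower, with 8 of 10 called lower and 1, Lep, higher, and their median log2 fold change was -1.05. When the 3 groups were fitted together, 0 of 9 members passed, and 0.304% of genes were called lower in that fit. Pik3r1 then had an FDR of 0.0547 and Insr one of 0.0600 in edgeR's quasi-likelihood test. Leaving out single libraries in turn left between 4 and 7 members called, and Insr, Pik3r1 and Pde3b were called each time. Of the 10 such fits, Pck1 was lost in 8, Akt2 in 7, Slc2a4 in 5 and Irs1 in 2.

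The controls of the 2 batches received the same diet, and 0 of 9 members passed between them, where 0% of 12106 genes tested by edgeR did. DESeq2 called 111 genes and none of the 9, and limma-voom called 0 genes. The members Pik3r1, Akt2 and Slc2a4 were higher in batch 2 at an unadjusted p under 0.05, beside 3.85% of all genes. The 10 adipocyte markers were all higher in batch 2 as well, 3 of them at that p and 0 with an FDR under 0.05, with a median log2 fold change of 1.03. Without control batch 1 replicate 1, 8 of these markers were higher and 2 lower, with a median of 0.70. In the members Pik3r1, Akt2 and Slc2a4 every control batch 2 library lay above every control batch 1 library, beside 4.13% of all genes. For them the estimated difference between the control groups was as large as, or larger than, that between WD and control batch 2, while the control groups of Insr differed by 0.11 and those of Pck1 by 0.10 on the log2 scale. The comparisons share libraries, and each value is given as measured in its own comparison. With 8 controls of both batches, without the library with epididymis RNA, and no term for batch, 2 of 9 members passed: Insr at -1.08 (SE 0.22, edgeR FDR 0.0158) and Pde3b at -1.02 (SE 0.25, edgeR FDR 0.0438). In that fit 0.529% of genes were called lower, and Pck1 was at -1.63 (SE 0.43, edgeR FDR 0.0732). When the 14 libraries were fitted without a batch term, 0 of 9 passed, and Insr had an edgeR FDR of 0.0635.

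**Figure D4:**
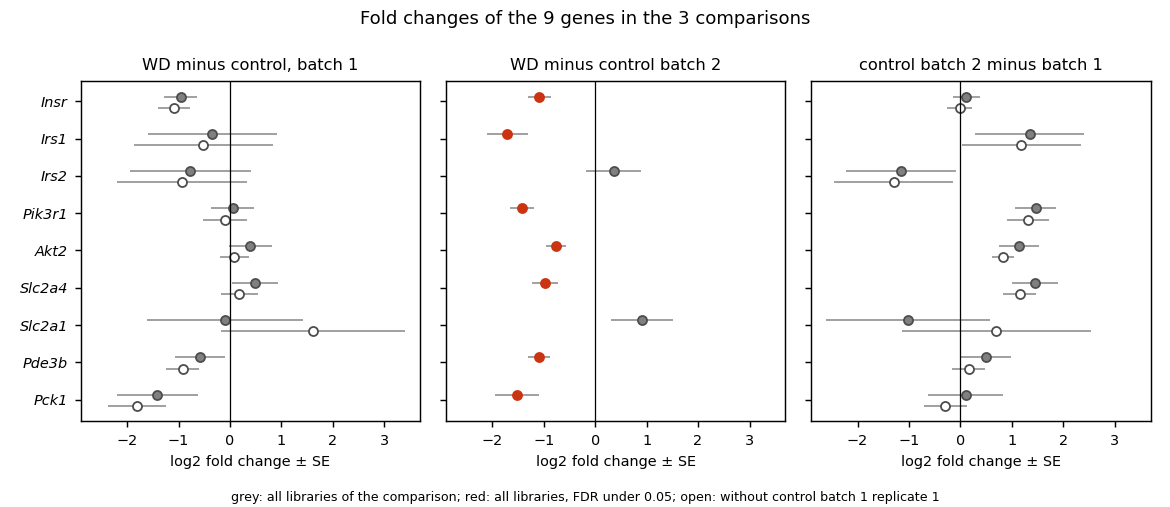
Log2 fold changes with standard errors of the 9 genes in the 3 comparisons, from edgeR, with all libraries (filled) and without control batch 1 replicate 1 (open), red where the FDR is under 0.05. Insr lies near -1 against both control groups and near 0 between them, whereas Pik3r1, Akt2 and Slc2a4 lie near or above 0 in batch 1 and well above 0 between the control groups.

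Other genes of the pathway were taken from 5 lists. Of 39 other insulin signaling genes, 34 were tested, and edgeR called 0 in batch 1, where 2 had an unadjusted p under 0.05 and were lower, beside 1.82% of all genes lower and 3.35% higher. Igf1r, the related receptor for insulin-like growth factor 1, had the lowest (log2 fold change -2.44, SE 0.70, unadjusted p = 0.00407, edgeR FDR 0.481), followed by Pik3ca, a catalytic subunit of phosphoinositide 3-kinase (-0.75, SE 0.34, unadjusted p = 0.0485, edgeR FDR 0.964). The Igf1r control batch 1 values ran from 18.9 to 222 CPM and the WD values from 7.92 to 25.5, and without control batch 1 replicate 1 the change was -1.06 (SE 0.64). In WD against control batch 2, 3 of the 34 were called lower and 0 higher: Gys1, which encodes muscle-type glycogen synthase, at -1.49 (SE 0.29, edgeR FDR 0.00391), Eif4ebp1, a repressor of translation, at -1.14 (SE 0.23, edgeR FDR 0.00556), and Foxo1, a transcription factor that AKT holds out of the nucleus, at -0.70 (SE 0.19, edgeR FDR 0.0338). Of all genes tested against control batch 2, 2.48% were called lower and 3.93% higher. In batch 1 Gys1, Eif4ebp1 and Foxo1 lay at -0.52, -0.08 and 0.28. The list's median was -0.11 against control batch 2 and 0.03 in batch 1, beside -0.0034 and 0.03 over all genes.

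Of 18 tested genes that restrain insulin signaling, edgeR called 0 in batch 1, where 1 had an unadjusted p under 0.05 and was lower, beside 1.82% of all genes. It was Ptprf, a receptor tyrosine phosphatase (-2.79, SE 1.27, unadjusted p = 0.0478, edgeR FDR 0.964). Its control batch 1 values ran from 0 to 196 CPM and its WD values from 0.667 to 17.1, and without control batch 1 replicate 1 the change was -1.36 (SE 1.36). With control batch 2 as the reference, 4 were called lower and 1 higher, beside 2.48% of all genes called lower and 3.93% called higher. Grb10, an adaptor that binds and inhibits the receptor, was at -2.35 (SE 0.41, edgeR FDR 0.00169). The kinase gene Prkce was at -1.17 (SE 0.30, edgeR FDR 0.0264), while the related Prkcd was higher at 1.87 (SE 0.51, edgeR FDR 0.0377). Ppp2ca, which encodes a catalytic subunit of protein phosphatase 2A and is named after its values were seen, was at -0.64 (SE 0.18, edgeR FDR 0.040). Between the control groups Grb10 and Prkce differed by 1.38 and 0.87, and Prkcd by -1.96.

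Of 22 tested genes of GLUT4 vesicle traffic, edgeR called 0 in batch 1, and none had an unadjusted p under 0.05. Relative to control batch 2, 4 were called lower and 2 higher, beside 2.48% and 3.93% of all genes. Ralgapa2, a subunit of a GTPase-activating complex downstream of AKT, was at -1.68 (SE 0.29, edgeR FDR 0.00166), Tbc1d4, the AKT substrate AS160 that holds GLUT4 vesicles inside the cell, at -1.39 (SE 0.25, edgeR FDR 0.00223) and Sort1, the sorting receptor sortilin, at -0.90 (SE 0.22, edgeR FDR 0.0182). Clta, the clathrin light chain, was higher at 0.75 (SE 0.20, edgeR FDR 0.0305). The small GTPase genes Rhoq, at -0.59 (SE 0.17, edgeR FDR 0.0482), and Rala, at 0.72 (SE 0.20, edgeR FDR 0.0408), were also called and are named after their values were seen. In Tbc1d4, WD held 18.1 to 31.97 CPM, control batch 1 held 0.108 to 63.0 and control batch 2 held 53.3 to 91.4. The batch 1 changes of Ralgapa2, Tbc1d4, Sort1 and Clta were -0.60, 0.05, -0.51 and 0.57. Between the control groups, batch 2 minus batch 1, these genes differed by 1.05, 1.42, 0.37 and -0.19.

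Of 24 tested genes of glucose transport and glycolysis, edgeR called 0 in batch 1, where 1 had an unadjusted p under 0.05 and was higher, beside 3.35% of all genes. It was the aldolase gene Aldoa (0.86, SE 0.36, unadjusted p = 0.0337, edgeR FDR 0.877), which was at 0.71 (SE 0.34) without control batch 1 replicate 1. When WD was set against control batch 2, 1 was called lower and 2 higher, beside 2.48% and 3.93% of all genes. Hk2, the insulin-responsive hexokinase, was called lower at -0.79 (SE 0.21, edgeR FDR 0.0330), and Pkm, pyruvate kinase, was called higher at 0.93 (SE 0.26, edgeR FDR 0.0455). Pdk4, a kinase that shuts off pyruvate dehydrogenase, was called higher at 1.82 (SE 0.49, edgeR FDR 0.0329), and its change in batch 1 was 0.00011. Hk2 and Pkm were at 0.23 and 0.27 in batch 1. Control batch 2 minus control batch 1 gave 1.01 for Hk2, -0.68 for Pkm and -1.84 for Pdk4. Of the 11 genes of the glyceroneogenesis list, which also holds Pdk4, Pdk4 alone was called against control batch 2. In batch 1 the list's lowest p, and its only value under 0.05 before adjustment, belonged to Gpd1, glycerol-3-phosphate dehydrogenase, which stood higher in WD (1.19, SE 0.41, unadjusted p = 0.0131, edgeR FDR 0.633), in the direction opposite to Pck1. Against control batch 2, however, Gpd1 was at -0.09 (edgeR FDR 0.932), and control batch 2 exceeded control batch 1 by 1.27 (edgeR FDR 0.445). The list's median was 0.00 in batch 1 beside 0.03 over all genes.

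**Figure D5:**
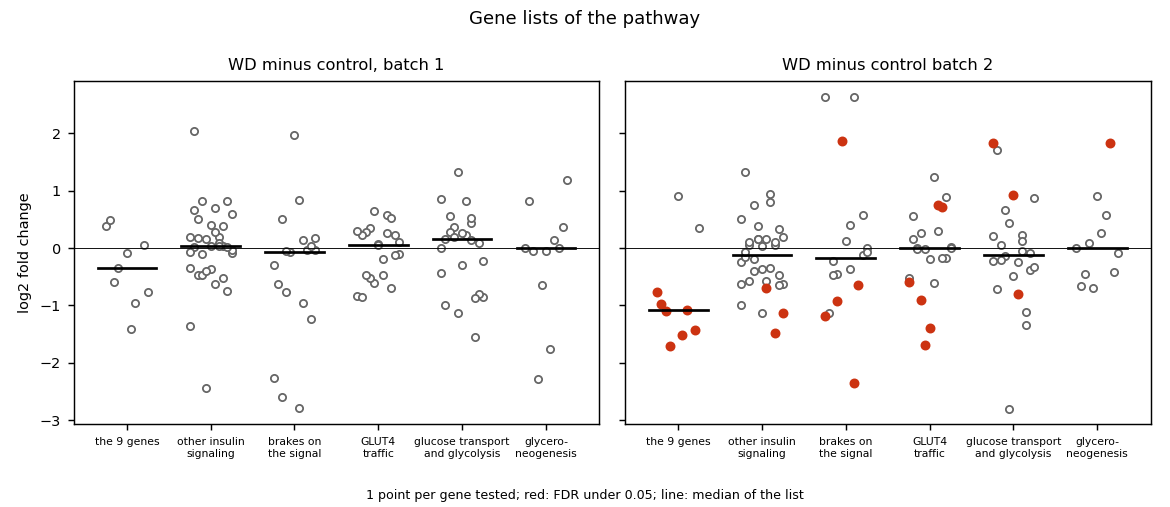
Log2 fold changes of the 9 genes and of 5 further lists, 1 point per gene tested, in batch 1 and against control batch 2, with the median of each list as a line and an FDR under 0.05 in red. The medians of the 5 further lists lie between -0.16 and 0.15 in both panels, while that of the 9 genes is -0.35 in batch 1 and -1.09 against control batch 2.

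Over the 13 libraries without control batch 1 replicate 1, the genes whose log2(CPM + 1) followed Slc2a4 most closely, among 5864 with a mean of at least 4, were Erc1 (Pearson r = 0.90), Lrpprc (0.88) and Fsd2 (0.87). For Irs1 they were Sik2 (r = 0.93), Rras (0.93) and Reep6 (0.92), and for Pck1 they were Ddx6 (r = 0.95), Gnai1 (0.93) and Prkar1a (0.93). The points share batch and diet, so that any gene that differs between the groups in the same way can have a high r. Among the members, Akt2 and Slc2a4 had r = 0.79 over these 13 libraries and 0.91 over all 14, and Pck1 and Insr had 0.79 and 0.67.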

How the data were processed

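The authors aligned single-end QuantSeq 3′ reads with Bowtie2, took gene coverage from Bedtools with multiply aligned reads kept, and deposited raw counts for 23282 genes. They also deposited log2 values, for which edgeR supplied TMM-scaled CPM and 1 was then added. The submitters' processing notes name FastQC and mm10. Reads of overlapping genes, on either strand, could be counted at more than 1 gene, since no strand setting is given in the sources used here. QuantSeq counts do not scale with gene length. Molecular identifiers are not mentioned, so depth gives counting error only. No columns of other samples were used.

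The 9 members and all gene lists were chosen with earlier results of these data known. Groups followed the labels. Counts were tested with edgeR 4.0.16 (R 4.3.3), quasi-likelihood test, TMM, filterByExpr, no covariates and FDR under 0.05 over all genes tested, in 3 comparisons: WD against control in batch 1, WD batch 1 against control batch 2, and control batch 2 against control batch 1. SE is the log2 fold change divided by the root of the F statistic. Single genes were compared by exact permutation tests of log2(CPM + 1), and the CPM printed are TMM-normalized over all 14 libraries. The values here differed from the deposited log2 values by at most 0.050 for the members. P-values measure the spread between libraries, each labelled as a separate sample. Motifs were searched on both strands of RefSeq promoters. Genes named from a list, unless stated, were up to 4 with the lowest FDR under 0.05 in a comparison, or otherwise at most 3 with the lowest unadjusted p in batch 1. A gene counted in a list is not reported here by name. Same-numbered libraries did not deviate together (Pearson r from -0.12 to 0.12), so the numbers were not taken to pair animals.

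Alternatives were DESeq2 size factors, upper-quartile factors, library totals, no filter, a stricter filter (CPM of 1 or more throughout), DESeq2 1.42.0, limma-voom (limma 3.58.1), all groups in 1 fit, all 14 or 13 libraries with or without a batch term, the replicate number as a block, each library left out, a pseudocount of 0.5 and the deposited log2 values. The scripts were tested on simulated data. Python 3.11.15, numpy 2.4.6, pandas 2.3.3, scipy 1.17.1 and matplotlib 3.10.9 served for the rest.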

Additional observations from a re-analysis of the deposited data

Results flagged for a closer look

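Among the 27 groups of a gene and its libraries, 5 held a library far from the others, where a library at either end was set against the group's whole range. Chance flags about 1 in 20 groups, or 1.35 of 27. No explanation was tested for any of them.

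Irs1 in control batch 2 replicate 2 was at 3.67 on the log2(CPM + 1) scale, with 123 counts, against 4.75 to 5.14 in the other 4 libraries. Irs2 in WD replicate 4 was at 1.28, with 18 counts, against 4.40 to 5.17. Akt2 in control batch 1 replicate 1, the library with epididymis RNA, was at 4.44 against 6.41 to 6.80. Pck1 in WD replicate 2 was at 6.36 against 9.12 to 9.46. Pck1 in control batch 2 replicate 5 was at 9.28 against 10.7 to 10.8.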

How the results depend on the processing

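Of the values of single members under other settings of the fits, 460 kept their direction and their side of the threshold, 31 lost the threshold, 2 passed it and 41 changed sign. In the permutation tests these numbers were 133, 3, 7 and 19. In batch 1 the count of genes called, 0 as reported, was 114 with DESeq2, 1 with all groups in 1 fit or with a batch term over all 14 libraries, 67 without that term, 190 over 13 libraries without it, 108 with both standing-apart controls left out, and 0 to 48 when single libraries were left out (48 without control batch 1 replicate 4). Members called were 2 over 13 libraries without a batch term. Against control batch 2, all groups in 1 fit gave 140 genes and 0 members in place of 773 and 7, and single libraries left out gave 4 to 7 members, with 4 when WD replicate 1 or 3 or control batch 2 replicate 1, 2 or 3 was left out. Between the controls, 0 genes became 111 with DESeq2, 1 with all groups in 1 fit, 28 with both controls left out and 0 to 2 without single libraries. The cause of these shifts was not tested. Leaving out both controls and scaling to adipocyte markers were chosen after seeing the data. Members with a permutation p under 0.05, 1 in batch 1 and 1 over all libraries, became 2 and 0 relative to adipocyte markers, and 4 over all libraries without control batch 1 replicate 1. With both changes together, also chosen after seeing the data, they became 2 (Slc2a1 and Pck1, no longer Insr) and 1 (Slc2a1). The permutation tests were run on the members only, and the share of all genes with a permutation p under 0.05 was not taken. Whether these counts of members exceed that share therefore cannot be told.

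The values whose sign changed were as follows. In batch 1, Irs1 was at 1.52 and Irs2 at 1.43 with limma-voom, and leaving out single libraries gave -0.78 to 0.060 for Irs1 and -1.21 to 0.00070 for Irs2. Pik3r1 was at -0.017 with DESeq2 or its size factors, -0.0034 with library totals, -0.032 with a CPM of at least 1, -0.94 over all 14 and -1.04 over 13 libraries without a batch term, -0.51 with both controls left out and -0.23 to 0.34 without single libraries. Over all 14 and over 13 libraries without a batch term, Akt2 was at -0.36 and -0.49, and Slc2a4 at -0.50 and -0.63. Slc2a1 was at 0.065 with library totals, 3.64 with limma-voom, 0.40 over all 14 and 1.14 over 13 libraries, 1.03 with both controls left out and -0.52 to 1.61 without single libraries. Irs2 against control batch 2 was at -0.12 with limma-voom. Between the controls, Irs2 was at 1.54 and Slc2a1 at 2.45 with limma-voom. With both controls left out Insr was at -0.13, Slc2a1 at 0.11, Pde3b at -0.16 and Pck1 at -0.68, and without single libraries Insr ranged from -0.014 to 0.32, Slc2a1 from -1.38 to 0.69 and Pck1 from -0.29 to 0.55. In the permutation tests of batch 1, single libraries left out gave -0.63 to 0.79 for Irs1, -1.39 to 0.73 for Irs2, -0.17 to 0.51 for Pik3r1 and -0.82 to 0.21 for Pde3b. Irs2 was at 0.14 with a pseudocount of 0.5, and Pik3r1 at -0.044 relative to adipocyte markers. Over all libraries Irs2 was at 0.0046 with a pseudocount of 0.5, 0.019 without control batch 1 replicate 1 and 0.46 relative to adipocyte markers, on which scale Akt2 was at 0.35 and Slc2a4 at 0.29. On that scale without control batch 1 replicate 1, Irs2 was at 0.52 in batch 1, and over all libraries Irs2, Akt2 and Slc2a4 were at 0.87, 0.40 and 0.33.

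With the replicate number as a replicate block, 0 genes were called in batch 1, 594 genes and 6 members against control batch 2, and 0 between the controls. Under the replicate block Irs1, Irs2 and Slc2a1 were at 0.24, 0.26 and 3.62 in batch 1, Irs2 at -0.0092 against control batch 2 and Slc2a1 at 2.01 between the controls. Irs1, Irs2 and Slc2a1 held 0 counts in at least 1 library of control batch 1, where fewer than 3 counts could not be shown.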

Other observations

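The lists of cell type markers gave a second view of the same libraries. All 10 macrophage markers tested stood higher in WD than in control batch 1, 6 of them with an unadjusted p under 0.05, beside 3.35% of all genes, and 0 with an FDR under 0.05 in edgeR's quasi-likelihood test, and the median log2 fold change was 1.498. Without control batch 1 replicate 1, 9 were higher and 1 lower, with a median of 1.24. In WD against control batch 2, 8 of the 10 were called higher, beside 3.93% of all genes, with Trem2, a lipid receptor of macrophages, at 4.53 (SE 0.49, edgeR FDR 3.38e-05), Cd68, a lysosomal protein, at 3.60 (SE 0.35, edgeR FDR 1.26e-05) and Adgre1, which encodes F4/80, at 2.70 (SE 0.24, edgeR FDR 7.11e-06). Among the adipocyte markers, leptin (Lep) had the lowest p in batch 1 and stood higher in WD (1.38, SE 0.47, unadjusted p = 0.0112, edgeR FDR 0.593). Relative to control batch 2, Cfd, which encodes adipsin, was at -3.07 (SE 0.28, edgeR FDR 9.78e-06), Car3, a carbonic anhydrase abundant in fat, at -2.25 (SE 0.18, edgeR FDR 3.57e-06), Retn, resistin, at -1.82 (SE 0.24, edgeR FDR 0.000222), and Adipoq, adiponectin, at -1.40 (SE 0.19, edgeR FDR 0.000306).

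Of 7 stromal markers, 3 were called higher against control batch 2, beside the same 3.93% of all genes, namely the fibrillar collagen genes Col1a1 at 1.47 (SE 0.27, edgeR FDR 0.00305) and Col3a1 at 1.26 (SE 0.25, edgeR FDR 0.00461), and Lum, which encodes the collagen-binding lumican, at 1.16 (SE 0.31, edgeR FDR 0.0330). None of the 7 endothelial, 5 mesothelial, 3 tested muscle markers or the 1 tested lymphocyte marker was called in that comparison, and in batch 1 edgeR called no marker of any list. Muscle markers, which matter for Slc2a4 since muscle also holds GLUT4, summed to between 8.79 and 157 CPM in all libraries, and summed to between 53.7 and 95.3 in control batch 2, where Slc2a4 was highest. The part of muscle in the Slc2a4 levels was not tested.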
